A study of Homo sapiens with 12 samples.

Results

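DDX5, a DEAD-box RNA helicase, was knocked down in MOLM-14 cells, an established human acute myeloid leukemia line of monocytic type, and RNA was measured as read counts per gene. The comparison uses 6 of the 12 libraries of the series, chosen by the sample labels: 3 libraries of cells given a control short hairpin RNA (shControl) and 3 of cells given a hairpin against DDX5 (shDDX5). Both hairpins were delivered by lentivirus with spinoculation, all cells were collected 96 hours after infection, and total RNA was sequenced. The labels call the 3 libraries of each group biological replicates. They name 1 hairpin against DDX5 and no rescue with a hairpin-resistant DDX5, so an effect of this hairpin on other genes and an effect of DDX5 cannot be told apart. The other libraries of the series come from a compound experiment and entered no fit.

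DDX5, also called p68, unwinds and remodels RNA. It takes part in transcription as a partner of many transcription factors, in splicing, and in the nuclear step of microRNA maturation, where the related helicase DDX17 (p72) works beside it in the Drosha complex. In myeloid leukemia it is studied as a gene on which the cells depend.

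The targeted gene fell in every shDDX5 library. DDX5 (chr17:64498254-64508199, GRCh38, minus strand) stood at 755, 718 and 730 CPM, counts scaled to a common library size, in shControl and at 159, 164 and 161 CPM in shDDX5, a log2 fold change of -2.19 ± 0.08 (SE; edgeR adjusted p = 3.7e-06) that was -2.18 without shDDX5 replicate 1. Its partner DDX17 also fell, from 615, 595 and 592 CPM to 413, 467 and 455 CPM (log2 fold change -0.43 ± 0.09, edgeR adjusted p = 0.0035). The 3 DDX5 values of each group lay close together, so the depth of the knockdown was alike in the 3 libraries. DDX5 shares 418 exonic bases with CEP95, and whether the counting used strand is not given in the sources used here.

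Of 61906 genes in the table, 14463 had enough counts to be tested, from libraries of 17603589 to 19674098 counts. Throughout, a gene "rose" or "fell" when its p from edgeR's quasi-likelihood test, adjusted over the tested genes by Benjamini and Hochberg's method, was under 0.05. By that rule 4088 genes rose (28.3%) and 4081 fell (28.2%), together 56.5% of those tested; 1565 rose and 1489 fell at least 2-fold. These shares are the background for every count of list members from the 6 libraries. For lists of protein-coding genes the nearer background is the 11516 tested protein-coding genes, of which 27.5% rose and 31.9% fell. The p-values measure the spread between these 3 and 3 libraries. Genes named beyond the ranking rules were chosen after their values were seen. Several share exonic bases with a neighbour, so reads may be mixed: DGCR8 (with TRMT2A), XPO5 (POLR1C), MCFD2 (TTC7A), ADAT3 (SCAMP4), CYBC1 (HEXD), HVCN1 (TCTN1), GLA (RPL36A), GLB1 (TMPPE), HEXA (its antisense gene), METTL3 (TOX4) and HOMER3 (its antisense gene).

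shDDX5 replicate 1 stood apart from its group. The median absolute log2 difference over tested genes was 0.32 and 0.31 between it and replicates 2 and 3, against 0.099 between those 2, and 1051 and 999 genes differed by over 2-fold from it, against 124. The difference followed gene length: protein-coding genes with under 2000 exonic bases had a median log2 change from shControl of 0.48 in replicate 1 but 0.03 and 0.05 in replicates 2 and 3, and genes with over 8000 bases had -0.40 against -0.07 and -0.09. Mitochondrial transcripts took 10.3% of its counts and 6.17 to 8.09% of the counts of the other 5 libraries. DDX5 itself was as low in it as in the other shDDX5 libraries.

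**Figure D1:**
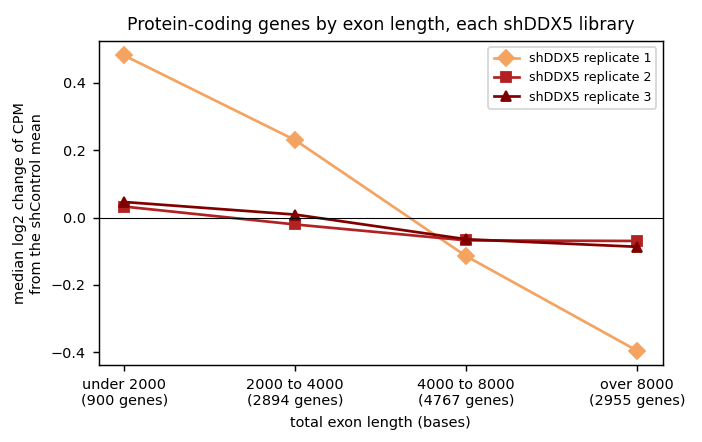
Median log2 change of CPM from the shControl mean (y axis, 0.1 CPM added) for tested protein-coding genes in 4 classes of total exon length (x axis, bases), with 1 line per shDDX5 library. Replicate 1 runs from 0.48 in the shortest class to -0.40 in the longest, while replicates 2 and 3 stay between -0.09 and 0.05.

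Every comparison was therefore also fitted without that library. Then 14916 genes were tested, of which 5318 rose (35.7%) and 5334 fell (35.8%), together 71.4%. These shares are the background for every count given without replicate 1. Among the 11681 protein-coding genes tested then, 4132 rose and 4783 fell. Of the 8169 genes called with 6 libraries, 8107 (56.1% of those tested) were called in the same direction without replicate 1, 62 were not called, and 0 were called in the opposite direction. A further 2346 genes, 1146 higher and 1200 lower, were called only without it. Of the 8107 genes called in both fits, 8095 had all 3 shDDX5 libraries on the side of the call. Choosing genes by a call in both fits favours this, so the count is a description. Single genes were nevertheless read differently. NCR3LG1, which encodes the ligand B7-H6 of natural killer cells, had 197, 195 and 198 CPM in shControl and 10.6, 95.3 and 92.4 CPM in shDDX5, so that its fall was called only without replicate 1 (edgeR adjusted p = 0.059 with it and 2.4e-20 without). KMT2D, a histone methyltransferase with a very long transcript, had 173, 174 and 178 CPM in shControl and 55.8, 194 and 206 CPM in shDDX5; its log2 fold change was -0.20 (edgeR adjusted p = 0.69) with replicate 1 and 0.19 (edgeR adjusted p = 0.00031) without it. DYNC1H1, the dynein heavy chain, went from -0.10 (edgeR adjusted p = 0.84) to 0.28 (edgeR adjusted p = 1e-06). Among the 9981 genes that averaged 5 CPM or more, 222 lay over 1 log2 unit below replicates 2 and 3 in replicate 1 and 11 lay above; their median exon lengths were 10273 and 1602 bases.

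The largest changes outside the lists of cell division, ribosome assembly and interferon genes covered secreted proteins, membrane proteins and enzymes. They were ranked among coding genes that averaged 5 CPM or more, were called in both fits and had groups that did not overlap. Among the 20 largest rises, the secretory leukocyte protease inhibitor SLPI led, followed by the phospholipase PLCB4 and the cell surface protein MXRA8. MXRA8 had 1.10, 1.38 and 1.13 CPM in shControl and 9.66, 18.6 and 19.2 CPM in shDDX5 (log2 fold change 3.71 ± 0.31, edgeR adjusted p = 3.7e-05). LAIR2, a secreted decoy receptor for collagen, rose from 2.24, 2.46 and 2.17 CPM to 27.5, 19.9 and 19.2 CPM (3.27 ± 0.18, edgeR adjusted p = 6.4e-06). As the ranking required, every shDDX5 library lay above every shControl library in both genes. Replicate 1 was the lowest of its group for MXRA8 and the highest for LAIR2.

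Enzymes, a chemokine and a progenitor membrane protein were among the other rises. USP28, a deubiquitinase, rose from 2.39, 1.87 and 2.66 CPM to 12.9, 16.6 and 16.1 CPM (log2 fold change 2.72 ± 0.17, edgeR adjusted p = 9.7e-06). The chemokine CCL24, an attractant of eosinophils, rose from 18.6, 19.4 and 19.2 CPM to 127, 94.1 and 94.8 CPM (2.46 ± 0.14, edgeR adjusted p = 6.4e-06). MS4A3, a membrane protein of granulocyte and monocyte progenitors, rose from 26.5, 21.8 and 22.3 CPM to 165, 128 and 120 CPM (2.55 ± 0.15, edgeR adjusted p = 8.0e-06). The ranking required groups that did not overlap, a condition that 32.2% of all tested genes met in this direction. CCNA1, the cyclin A of the germline that myeloid leukemia cells also express, rose from 70.8, 73.1 and 74.0 CPM to 459, 358 and 372 CPM. SPP1 (osteopontin), RNASE1, RNASE3, SDS (serine dehydratase), FILIP1L, SLCO4C1, TBX1, HMOX1, JUN and the histone genes H2BC12, H2BC21 and H2AC6 completed the 20 together with those named, with log2 fold changes of 2.50 to 3.26. TBX1 shares 280 exonic bases with GNB1L and SPP1 shares 196 with an unnamed gene.

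The 20 largest falls also held secreted proteins, membrane proteins and enzymes. SPOCK1, a secreted proteoglycan, had 15.4, 14.1 and 12.8 CPM in shControl and 0.398, 0.849 and 0.574 CPM in shDDX5 (log2 fold change -4.53 ± 0.21, edgeR adjusted p = 4.4e-06). ALDH18A1, which makes the proline precursor pyrroline-5-carboxylate, fell from 275, 285 and 282 CPM to 49.6, 55.1 and 55.4 CPM (-2.40 ± 0.09, edgeR adjusted p = 3.7e-06). SLC38A5, a glutamine and serine carrier, fell from 90.3, 92.9 and 92.1 CPM to 19.3, 17.5 and 17.3 CPM (-2.35 ± 0.09, edgeR adjusted p = 3.7e-06). The 3 shDDX5 values of both metabolic genes lay within a narrow range, replicate 1 included. ANGPT1, a ligand of the TIE2 receptor made by stem and progenitor cells, fell from 10.3, 10.2 and 12.2 CPM to 1.53, 1.87 and 1.41 CPM (-2.76 ± 0.16, edgeR adjusted p = 7.4e-06). The cannabinoid receptor CNR2, the synaptic vesicle protein SV2A, the cytokine IL32, the RNA-binding protein MEX3A, the histone chaperone NASP, the nucleoporin NUP88, the zinc-finger factor ZNF521, DSCC1, ZGRF1, TEX15, LZTS1, PRRT4, C1orf216, MEIS1, CD48 and the calcium channel ITPR3 made up the rest of the 20, with log2 fold changes of -3.72 to -2.28. NUP88 shares 4240 exonic bases with RPAIN and ITPR3 shares 1025 with UQCC2, so reads of these genes may be mixed.

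**Figure D2:**
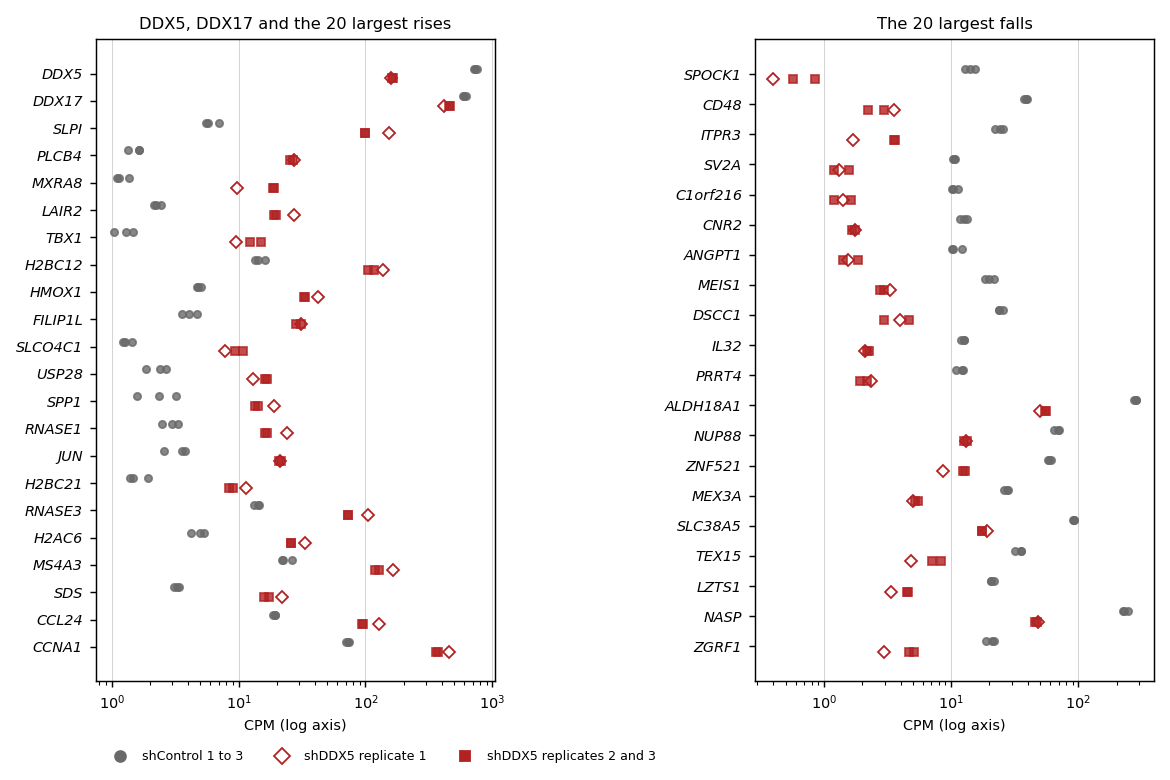
CPM of DDX5, DDX17, the 20 largest rises (left) and the 20 largest falls (right) in each of the 6 libraries, on log axes; circles are shControl, open diamonds shDDX5 replicate 1 and squares shDDX5 replicates 2 and 3. No shDDX5 point reaches the range of the shControl points of its gene, for example 459, 358 and 372 CPM against 70.8 to 74.0 CPM for CCNA1. The ranking required this of the rises and falls.

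A few genes went to or came from nearly no counts. PTGIS, the prostacyclin synthase, had 6.92, 7.05 and 5.97 CPM in shControl and 0, 0.396 and 0 CPM in shDDX5 (edgeR adjusted p = 8.2e-05). CYP2E1, a cytochrome P450, had 3.49, 3.65 and 3.70 CPM in shControl and 0.0568, 0.283 and 0.209 CPM in shDDX5 (edgeR adjusted p = 2.4e-05), but shares 2442 exonic bases with SYCE1. MYOM1, a muscle sarcomere protein, was the opposite case, with 0.0996, 0.246 and 0.247 CPM in shControl and 3.12, 5.09 and 3.71 CPM in shDDX5 (edgeR adjusted p = 3.4e-05).

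Gains and losses in the mass of RNA were ranked under the same conditions. The largest single gain was lysozyme (LYZ), from 3581, 3450 and 3203 CPM to 13761, 12603 and 12364 CPM (log2 fold change 1.92 ± 0.12, edgeR adjusted p = 9.4e-06). It was followed by 2 mitochondrial messages, the chitinase-like protein CHI3L1, PSAP, the elongation factor EEF2, the granule protease PRTN3 and the ferritin chain FTL. PRTN3 rose from 392, 435 and 415 CPM to 2608, 1623 and 1801 CPM (2.28 ± 0.18, edgeR adjusted p = 3.0e-05), with replicate 1 the highest. The mitochondrial genes MT-ND4 and MT-CYB were also highest in replicate 1, and MT-ND4 changed by 0.59 (edgeR adjusted p = 0.042) with it and 0.33 (edgeR adjusted p = 0.041) without it, and was not called without any 1 of the shControl libraries; EEF2 was not called without shControl replicate 1. Among the 8 largest losses, OAZ1, the antizyme that sends ornithine decarboxylase to degradation, fell from 712, 835 and 852 CPM to 275, 173 and 197 CPM (-1.90 ± 0.18, edgeR adjusted p = 6.3e-05). The nuclear RNA-binding proteins HNRNPU (log2 fold change -1.17) and HNRNPA2B1 (-1.04), the chaperones HSP90AB1 (-0.83) and CALR (-0.89), PTMA (-1.09), RPL7 (-1.09) and the granule proteoglycan SRGN (-0.58) were the other 7. HNRNPU shares 4281 exonic bases with COX20 and HNRNPA2B1 shares 1575 with CBX3.

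Some abundant genes held their level. For 29 protein-coding genes the 95% interval of the log2 fold change lay within 0.2 of 0. The 6 most abundant were CORO1C, SND1, PSMD2, PRPF19, DUSP3 and CIRBP. CORO1C, an actin-binding coronin, had 371, 363 and 359 CPM in shControl and 349, 371 and 367 CPM in shDDX5 (log2 fold change -0.01 ± 0.08). PSMD2, a subunit of the proteasome cap, had 241, 248 and 268 CPM in shControl and 245, 247 and 261 CPM in shDDX5 (-0.01 ± 0.08). The ranges of the groups overlapped for both.

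**Figure D3:**
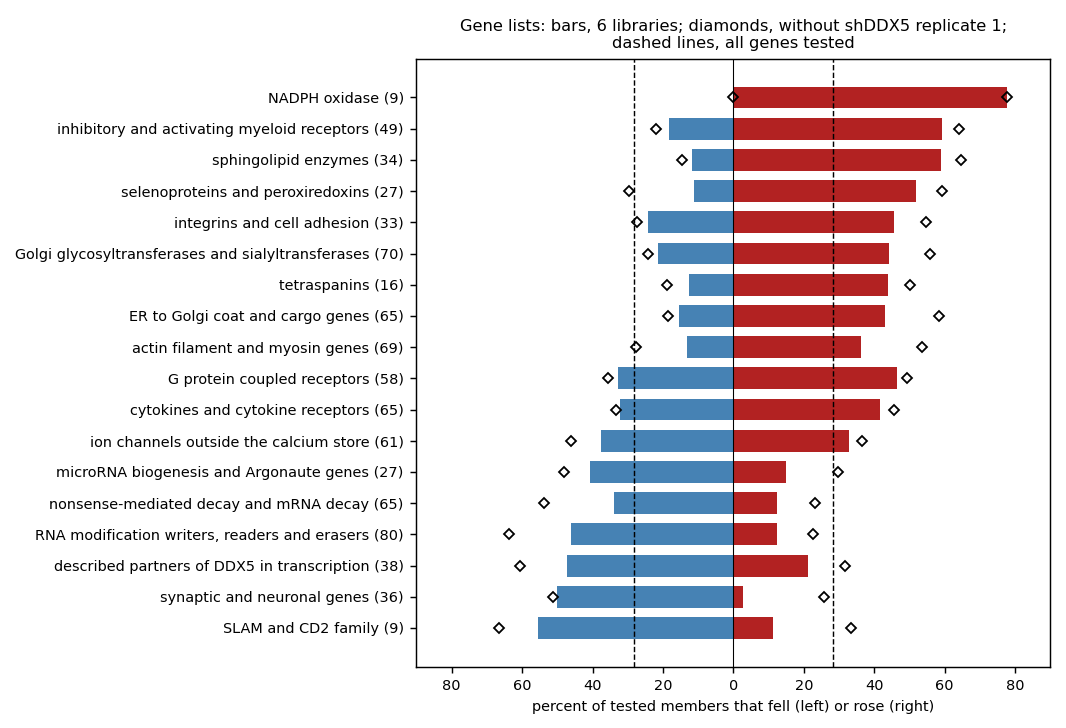
Percent of tested members of 18 gene lists that rose (right) or fell (left) with 6 libraries (bars) and without shDDX5 replicate 1 (diamonds); the number of tested members is in parentheses and dashed lines mark all tested genes (28.3% and 28.2%). Bars reach past the dashed line on the right for the NADPH oxidase, myeloid receptor and sphingolipid lists, and on the left for the RNA modification, DDX5 partner, synaptic and SLAM lists.

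Receptors that tune myeloid cells were mostly higher after the knockdown. Of 49 tested members of a list of inhibitory and activating myeloid receptors, 29 rose and 9 fell, with a median log2 fold change of 0.58 against 0.00 over all tested genes; without replicate 1 the counts were 32 and 11 of 50. FCER2 (CD23), the low-affinity IgE receptor, rose from 250, 258 and 251 CPM to 1392, 997 and 1040 CPM (log2 fold change 2.18 ± 0.14, edgeR adjusted p = 1.2e-05). TREM2, a lipid-sensing receptor of macrophages, rose from 70.8, 78.5 and 69.0 CPM to 348, 240 and 258 CPM (1.95 ± 0.15, edgeR adjusted p = 2.4e-05). Its signalling adaptor TYROBP rose from 80.0, 84.7 and 83.0 CPM to 293, 178 and 196 CPM (1.43 ± 0.18, edgeR adjusted p = 0.00029). In all 3 genes the highest value was in replicate 1 and the other shDDX5 libraries were also above shControl.

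Other receptors of the list that rose were CD209 (DC-SIGN), a lectin of macrophages and dendritic cells, from a mean of 61.8 to 209 CPM, the inhibitory receptor LILRB4, from 129 to 339 CPM, and SIRPB1, from 38.3 to 86.1 CPM. Members that fell included TREM1, an amplifier of inflammation, from 97.9 to 45.7 CPM (log2 fold change -1.10). FCGR2B, the inhibitory IgG receptor, fell from 5.28, 4.88 and 4.00 CPM to 0.511, 0.623 and 0.627 CPM (-2.99 ± 0.21, edgeR adjusted p = 1.7e-05). CLEC5A, a lectin receptor at 373 CPM in shControl, had a log2 fold change of 0.03. Each direction thus held both activating and inhibitory receptors.

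The SLAM and CD2 family, receptors by which blood cells contact each other, was mostly lower. Of 9 tested members 5 fell and 1 rose (median -1.14); without replicate 1, 6 fell and 3 rose. CD48 fell from 38.5, 39.6 and 37.5 CPM to 3.58, 2.21 and 2.98 CPM (log2 fold change -3.72 ± 0.15, edgeR adjusted p = 3.7e-06), and its receptor CD244 fell from 8.51, 9.51 and 9.03 CPM to 3.92, 3.34 and 3.92 CPM (-1.27 ± 0.13, edgeR adjusted p = 7.7e-05). SLAMF1, LY9 and SLAMF8 were the other 3, while CD58, a ligand of CD2, rose by 1.07 (edgeR adjusted p = 7.3e-05).

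Adhesion and actin genes were more often higher. Of 33 tested integrin and adhesion genes 15 rose and 8 fell (median 0.28), and of 69 actin and myosin genes 25 rose and 9 fell (median 0.15); without replicate 1 the second pair of counts was 37 and 19. ITGA5, the fibronectin receptor chain, rose from 180, 192 and 197 CPM to 506, 647 and 675 CPM (log2 fold change 1.68 ± 0.12, edgeR adjusted p = 2.1e-05). ITGAM, the CD11b chain of mature myeloid cells, rose by 1.27 (edgeR adjusted p = 4.5e-05), whereas ITGAL, the CD11a chain, fell from a mean of 512 to 279 CPM (-0.88). CNN2, an actin-binding calponin, rose from 189, 205 and 200 CPM to 588, 534 and 566 CPM (1.51 ± 0.09, edgeR adjusted p = 7.1e-06), and LSP1, a leukocyte actin regulator, from a mean of 5.33 to 24.8 CPM. The ARP2/3 subunit gene ARPC3, zyxin (ZYX) and gelsolin (GSN) also rose, and the actin nucleator DIAPH1 and WASF1 fell.

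The genes of the NADPH oxidase, the enzyme of the phagocyte burst, rose as a group of 7 of 9 tested members with none falling (median 0.79), and the counts were the same without replicate 1. The catalytic chain CYBB had 69.9, 65.7 and 67.0 CPM in shControl and 102, 118 and 116 CPM in shDDX5 (log2 fold change 0.73 ± 0.09, edgeR adjusted p = 0.00023). The cytosolic subunit NCF1 had 101, 108 and 107 CPM in shControl and 241, 192 and 200 CPM in shDDX5 (1.00 ± 0.11, edgeR adjusted p = 0.00011). RAC2, the GTPase of the complex, rose by 0.88, the CYBB chaperone CYBC1 by 0.81, the proton channel HVCN1 by 0.79 and NOXA1 by 1.74. CYBA (0.29) and NCF4 (0.06) did not pass the test.

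Sphingolipid enzymes were more often higher than lower. Sphingolipids are membrane lipids built on ceramide; serine palmitoyltransferase starts their synthesis in the endoplasmic reticulum, and lysosomal hydrolases with saposin helpers take them apart. Of 34 tested members of the list 20 rose and 4 fell (median 0.41); without replicate 1 the counts were 22 and 5 and the median 0.34. The acid sphingomyelinase SMPD1 rose from 5.73, 6.75 and 7.10 CPM to 28.2, 23.5 and 27.1 CPM (log2 fold change 2.01 ± 0.12, edgeR adjusted p = 9.0e-06). The acid ceramidase ASAH1 rose from 191, 179 and 182 CPM to 700, 611 and 589 CPM (1.78 ± 0.10, edgeR adjusted p = 6.2e-06). The groups of both were far apart, with no shDDX5 library near shControl. ASAH1 shares 615 exonic bases with its antisense gene.

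Other hydrolases and activators, chosen by role after their values were seen, also rose. PSAP, the precursor of the saposins, rose from 1492, 1489 and 1489 CPM to 3790, 3558 and 3673 CPM (log2 fold change 1.30 ± 0.10, edgeR adjusted p = 1.9e-05). The arylsulfatase ARSA rose by 1.64, the GM2 activator GM2A by 1.41, the hexosaminidase chain HEXA by 1.23, the galactosidases GLB1 by 1.04 and GLA by 1.02, and the neutral sphingomyelinase SMPD2 by 1.07. GALC, the galactosylceramidase of the same compartment, had a log2 fold change of 0.14 and did not pass the test with 6 libraries. On the side of synthesis, SPTLC1 fell from 73.0, 73.5 and 78.3 CPM to 48.4, 49.2 and 46.2 CPM (-0.64 ± 0.08, edgeR adjusted p = 0.00025) and SPTLC2 from 37.3, 32.0 and 33.3 CPM to 16.6, 22.0 and 20.2 CPM (-0.80 ± 0.12, edgeR adjusted p = 0.00075). The ceramide kinase CERK fell by 0.93, and of the enzymes that build on ceramide, UGCG (glucosylceramide) rose by 0.78 and SGMS1 (sphingomyelin) by 0.70. ACER2 rose in the test but had 2.16 CPM in replicate 1, within the shControl range of 1.87 to 2.64 CPM, and 6.62 and 5.80 CPM in the other 2, and it was not called without any 1 library other than replicate 1, nor with the replicate number as a block (edgeR adjusted p = 0.059).

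**Figure D4:**
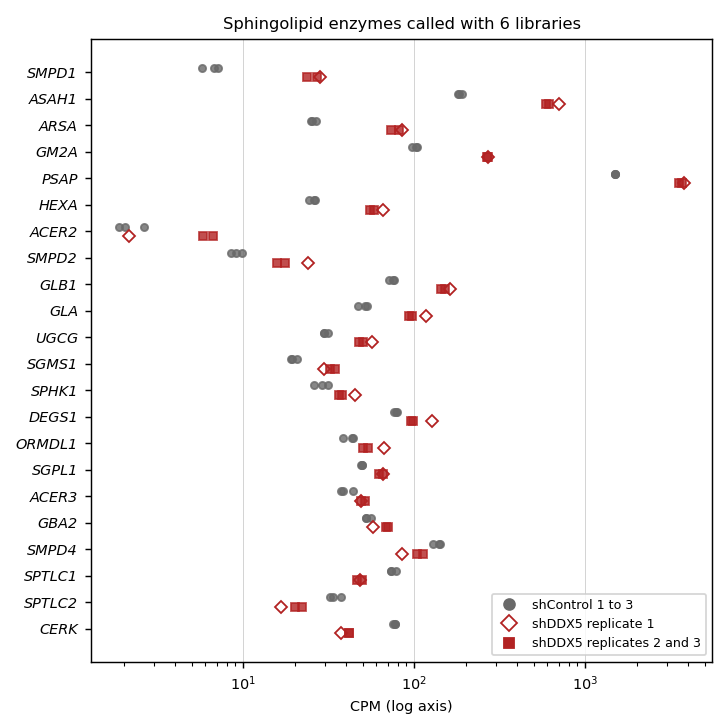
CPM in each library, on a log axis, of 22 of the 24 sphingolipid genes that rose or fell, ordered by log2 fold change; circles are shControl, open diamonds shDDX5 replicate 1 and squares replicates 2 and 3. The genes that rose most are at the top, such as ASAH1 with 589 to 700 CPM against 179 to 191 CPM, and the 4 genes that fell are at the bottom.

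Genes of the secretory path between these compartments leaned upward. Of 65 tested coat and cargo genes between the endoplasmic reticulum and the Golgi 28 rose and 10 fell (median 0.22), and of 70 Golgi glycosyltransferases 31 rose and 15 fell (median 0.26). Without replicate 1 the counts were 38 and 12 in the first list and 39 and 17 in the second. The median change of the second list was 0.007 in replicate 1, against 0.34 and 0.25 in replicates 2 and 3. The largest change in the first list was in the other direction. LMAN1, the cargo receptor that carries clotting factors with its partner MCFD2, fell from 183, 173 and 172 CPM to 34.5, 39.3 and 38.9 CPM (log2 fold change -2.23 ± 0.09, edgeR adjusted p = 3.7e-06), while MCFD2 rose from a mean of 113 to 196 CPM (0.79). SEC23B, a coat protein, rose by 0.86 (edgeR adjusted p = 4.6e-05). MGAT4B, which branches N-glycans, rose from 36.8, 39.7 and 37.1 CPM to 136, 113 and 122 CPM (1.71 ± 0.10, edgeR adjusted p = 6.9e-06), and ST6GAL1, which adds terminal sialic acid, fell from a mean of 51.9 to 23.7 CPM.

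Among 16 tested tetraspanins, membrane organisers that mark endosomes and exosomes, 7 rose and 2 fell. CD63 rose from 240, 242 and 240 CPM to 704, 475 and 476 CPM (edgeR adjusted p = 0.00037), CD53 by 1.08 and CD81 by 0.92, all with the highest value in replicate 1. Of 27 selenoproteins and peroxiredoxins 14 rose and 3 fell (median 0.38, and 0.30 without replicate 1, when 16 rose and 8 fell). Their median exon length was 2244 bases, near the class in which replicate 1 differed most, and their median change was 0.69 in replicate 1 and 0.29 in each of the other shDDX5 libraries. MSRB1, a methionine sulfoxide reductase, rose by 1.19 (edgeR adjusted p = 6.4e-05), and GPX4, which removes lipid peroxides, rose by 0.71.

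Carriers and vitamin-dependent enzymes were called in both directions, and single members changed by several fold. Of 41 tested sodium, proton and phosphate carriers 11 rose and 17 fell (median -0.22), of 43 monocarboxylate, sugar and nucleoside carriers 16 rose and 14 fell, and of 30 vitamin and cofactor genes 9 rose and 8 fell. SLC29A1, the main nucleoside transporter of the plasma membrane, fell from 117, 139 and 131 CPM to 34.9, 31.8 and 35.3 CPM (log2 fold change -1.92 ± 0.10, edgeR adjusted p = 5.2e-06). The cobalamin-dependent methionine synthase MTR fell from 111, 112 and 105 CPM to 15.4, 30.8 and 29.7 CPM (-2.11 ± 0.23, edgeR adjusted p = 0.00014), and MTRR, which reactivates it, from 128, 120 and 125 CPM to 47.1, 55.4 and 53.7 CPM (-1.26 ± 0.09, edgeR adjusted p = 1.9e-05). MTR was lowest in replicate 1 and fell by 1.85 without it. SLC39A8, a zinc and manganese importer, fell from 58.3, 58.0 and 54.0 CPM to 13.8, 12.2 and 12.4 CPM (-2.15 ± 0.09, edgeR adjusted p = 4.1e-06), although 14 of the 32 zinc and copper genes rose and 6 fell.

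Signalling receptors and channels moved in both directions. Of 58 tested G protein coupled receptors 27 rose and 19 fell, of 65 cytokines and their receptors 27 rose and 21 fell, and of 61 ion channels 20 rose and 23 fell. PTGER4, the prostaglandin E2 receptor EP4, rose from 32.5, 30.0 and 32.2 CPM to 118, 138 and 136 CPM (log2 fold change 2.05 ± 0.10, edgeR adjusted p = 4.4e-06). SUCNR1, the succinate receptor, rose from 13.6, 14.2 and 11.3 CPM to 51.7, 55.5 and 50.1 CPM (2.01 ± 0.11, edgeR adjusted p = 6.2e-06). CNR2, the cannabinoid receptor of immune cells, fell from 13.3, 12.7 and 11.8 CPM to 1.76, 1.75 and 1.67 CPM (-2.86 ± 0.13, edgeR adjusted p = 4.1e-06). The shDDX5 values of each gene were tight and far from shControl.

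Among cytokines the inflammatory mediators TNF, IL32, OSM, LTA, LTB and IL12A fell, and the chemokine CCL22 rose from under 0.2 CPM in each shControl library to 2.39, 1.70 and 1.51 CPM. TNF had 304, 335 and 330 CPM in shControl and 79.3, 63.7 and 67.3 CPM in shDDX5 (log2 fold change -2.20 ± 0.11, edgeR adjusted p = 4.7e-06). FGFR1, a growth factor receptor, fell by 1.92 (edgeR adjusted p = 6.4e-06) and IL17RE rose by 1.56 (edgeR adjusted p = 1.1e-05). The fractalkine receptor CX3CR1 fell from 7.72, 6.75 and 8.14 CPM to 0.738, 0.849 and 1.36 CPM (-2.92 ± 0.22, edgeR adjusted p = 2.2e-05). Among channels, KCNK5, an acid-sensitive potassium channel, fell by 1.95 (edgeR adjusted p = 4.7e-06), and the ATP-gated channel P2RX4 rose by 1.29 (edgeR adjusted p = 1.7e-05). Of the kinases downstream of myeloid receptors, FES rose from 12.9, 12.8 and 12.7 CPM to 51.6, 49.3 and 53.0 CPM (2.00 ± 0.08, edgeR adjusted p = 3.7e-06) and YES1 from 32.3, 28.6 and 27.4 CPM to 135, 156 and 145 CPM (2.30 ± 0.10, edgeR adjusted p = 4.1e-06).

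Tested neuronal and synaptic genes were mostly lower or not called. Of 94 genes in the list only 36 passed the filter on low counts; 18 fell and 1 rose (median -0.42). Without replicate 1 the fall count was 20 of 39, but 10 rose. SV2A fell from 10.8, 10.3 and 10.6 CPM to 1.31, 1.19 and 1.57 CPM (log2 fold change -2.95 ± 0.14, edgeR adjusted p = 4.5e-06), SHANK1, a scaffold of the postsynaptic density, from a mean of 60.7 to 24.8 CPM, and the synaptotagmin SYT11 from 15.8 to 6.27 CPM. STMN1, which is also a gene of dividing cells, fell by 1.29 (edgeR adjusted p = 0.00015). The 1 gene that rose was the scaffold HOMER3, by 1.45 (edgeR adjusted p = 2.2e-05).

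Proteins described as partners of DDX5 in transcription and RNA processing were more often lower. Of 38 tested, 18 fell and 8 rose (median -0.34); without replicate 1, 23 fell and 12 rose. The histone deacetylase HDAC1 fell from 234, 244 and 259 CPM to 99.1, 100.3 and 97.4 CPM (log2 fold change -1.31 ± 0.08, edgeR adjusted p = 9.2e-06). The RNA-binding partners BCLAF1 (-1.25), HNRNPH1 (-1.19), THRAP3 (-1.17), SFPQ (-0.98) and EWSR1 (-0.96) also fell. Those that rose included the transcription factors RUNX2 by 1.11, STAT3 by 0.66, RELA by 0.52 and SMAD3 by 0.47, and also CTNNB1 by 0.62. The coactivators EP300 and CREBBP did not pass the test with 6 libraries.

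Several genes of the machinery of microRNA maturation, in which DDX5 itself takes part, were lower. Of 27 tested genes 11 fell and 4 rose, with a median of -0.28 that was -0.11 without replicate 1, where 13 fell and 8 rose. The median exon length of the list was 8760 bases, in the class that was lowest in replicate 1. Without replicate 1 the balance was near that of the 2991 protein-coding genes with over 8000 bases, where 1301 fell and 1022 rose (median -0.08). DGCR8, the RNA-binding subunit of the nuclear Microprocessor, had 55.8, 55.2 and 58.8 CPM in shControl and 18.9, 27.8 and 28.4 CPM in shDDX5 (log2 fold change -1.18 ± 0.15, edgeR adjusted p = 0.00033; -1.01 without replicate 1). Its nuclease DROSHA had 94.3, 92.7 and 92.9 CPM in shControl and 50.3, 65.6 and 59.6 CPM in shDDX5 (-0.67 ± 0.11, edgeR adjusted p = 0.00099; -0.58 without). The export factor XPO5 fell by 0.57 and the cytoplasmic nuclease DICER1 by 0.77, or by 0.44 and 0.54 without replicate 1. In each of these 4 genes replicate 1 was the lowest library, and the other shDDX5 libraries were still below shControl. AGO2, the slicing Argonaute, had a log2 fold change of -0.19 with it and 0.04 without it and passed neither test, while AGO3 rose; AGO1 rose as well, but was called neither without any 1 shControl library nor without shDDX5 replicate 2 or 3.

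Mature microRNAs were not measured; their host transcripts were. Of 18 tested hosts 4 rose and 5 fell, and the largest changes at over 5 CPM were in MIR22HG and MIR17HG. The host of miR-22 had 11.4, 12.0 and 13.3 CPM in shControl and 43.4, 39.2 and 41.0 CPM in shDDX5 (MIR22HG, chr17:1711447-1717174, minus strand; log2 fold change 1.75 ± 0.10, edgeR adjusted p = 6.2e-06; 1.71 without replicate 1). The host of the miR-17-92 cluster had 12.7, 11.0 and 11.8 CPM in shControl and 4.60, 5.09 and 4.28 CPM in shDDX5 (MIR17HG, chr13:91347820-91354579, plus strand; -1.35 ± 0.12, edgeR adjusted p = 4.5e-05; -1.34 without). Neither pair of groups overlapped. A host's level is not the level of its microRNAs. Of the 14 mature products that RefSeq (GRCh38.p14) places in these 2 transcripts, 7 are shown, 1 arm of each hairpin, to compare their seeds; they run 5′ to 3′ with the seed, bases 2 to 8, in capitals; within the cluster miR-17-5p and miR-20a-5p have 1 seed in common, and so do the 3p arms of miR-19a and miR-19b.
hsa-miR-22-3p: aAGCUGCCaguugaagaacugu
hsa-miR-17-5p: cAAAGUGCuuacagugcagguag
hsa-miR-20a-5p: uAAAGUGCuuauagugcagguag
hsa-miR-18a-5p: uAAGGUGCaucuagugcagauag
hsa-miR-19a-3p: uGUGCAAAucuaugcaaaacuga
hsa-miR-19b-3p: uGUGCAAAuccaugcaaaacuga
hsa-miR-92a-3p: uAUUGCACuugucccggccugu

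MIR124-1HG rose by 0.71 (edgeR adjusted p = 0.00011) and MIR155HG by 0.48 (not called without any 1 of the shControl libraries), MIR646HG fell by 0.75 (edgeR adjusted p = 0.00064) and MIR222HG by 0.50 (not called without shControl replicate 1 or 3 or shDDX5 replicate 2 or 3). MIR223HG, the host of the granulocyte microRNA miR-223, had a mean of 58.2 CPM in shControl and 65.7 CPM in shDDX5 (log2 fold change 0.17) and did not pass the test.

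Enzymes that modify RNA were more often lower than higher. Of 80 tested writers, readers and erasers 37 fell and 10 rose (median -0.24); without replicate 1, 51 fell and 18 rose. The members with the smallest p-values act on transfer RNA or on several kinds of RNA. The pseudouridine synthase PUS7 fell from 62.2, 61.8 and 60.3 CPM to 21.9, 25.3 and 24.8 CPM (log2 fold change -1.36 ± 0.09, edgeR adjusted p = 1.2e-05). WDR4, of the transfer RNA 7-methylguanosine enzyme, fell by 1.24, TRMT6, of the 1-methyladenosine enzyme, by 1.17, the Elongator subunit ELP2 by 1.14 and the acetyltransferase NAT10 by 1.08. The N6-methyladenosine writers were mixed: METTL16 fell by 0.93, ZC3H13 by 0.83 and METTL3 (-0.11) and METTL14 (-0.23) did not pass the test with 6 libraries. ADAT3, a transfer RNA deaminase subunit, rose from a mean of 3.03 to 10.4 CPM.

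Messenger RNA decay factors were also more often lower than higher, with 22 of 65 falling and 8 rising (35 and 15 without replicate 1). The share that fell, 33.8%, was near the 31.9% of tested protein-coding genes, while 12.3% rose against 27.5%. The decapping enzyme DCP2 fell from 110, 103 and 101 CPM to 49.8, 50.8 and 47.6 CPM (log2 fold change -1.09 ± 0.08, edgeR adjusted p = 2.0e-05), the deadenylase CNOT6 by 1.36, PAN2 by 1.30 and UPF3B, of nonsense-mediated decay, by 1.06. The genes that rose most in the list, BTG1 (1.97) and BTG2 (1.71), encode antiproliferative proteins that recruit deadenylases. BTG2 had 50.6, 53.4 and 55.0 CPM in shControl and 190, 164 and 166 CPM in shDDX5 (edgeR adjusted p = 6.2e-06).

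Classes of transcript differed in the balance of calls. Among 11516 tested protein-coding genes 3162 rose and 3675 fell, among 1593 long noncoding genes 520 rose and 225 fell, and among 864 pseudogenes 260 rose and 119 fell. Of the long noncoding genes 1310 averaged under 5 CPM, and of the pseudogenes 651. A gene with counts only after the knockdown passes the filter because it rose. Among long noncoding genes with at least 1 CPM in shControl, 49 of 110 divergent genes, defined below, rose and 9 fell. Of the 842 others chosen the same way, 210 rose and 185 fell. Pseudogenes were not split by their shControl level. Protein-coding genes with 1 merged exon (244) had 109 rising and 33 falling, against 714 and 1453 of the 3703 with over 15 exons; their medians were 0.37 and -0.20, and 0.25 and -0.13 without replicate 1. Single long noncoding genes had very large changes. The unnamed gene ENSG00000259094 (chr2:118949306-118952983) rose from 1.05, 0.887 and 0.740 CPM to 18.9, 24.4 and 25.3 CPM (log2 fold change 4.67 ± 0.19, edgeR adjusted p = 3.7e-06), and IL12A-AS1, antisense to the cytokine gene IL12A, fell from 15.3, 14.7 and 15.6 CPM to 2.27, 2.66 and 3.08 CPM (-2.50 ± 0.13, edgeR adjusted p = 5.2e-06). IL12A fell as well, from 3.98, 3.80 and 4.74 CPM to 1.36, 1.02 and 0.940 CPM (-1.91 ± 0.20, edgeR adjusted p = 0.00012).

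Long noncoding genes were also grouped by position. Many active promoters are transcribed in both directions, and the upstream product is usually short-lived noncoding RNA. The position classes were defined after the noncoding calls had been seen. Divergent genes started within 2 kb of a tested protein-coding start on the opposite strand, ran away from it and overlapped no tested protein-coding gene. Of 186 such long noncoding genes that were tested, 96 rose (51.6%) and 11 fell (5.91%). Their median log2 fold change was 0.69, and 0.66 without replicate 1. Of the other 1407 tested long noncoding genes 424 rose (30.1%) and 214 fell (15.2%), with a median of 0.15. Of their 185 protein-coding partners 50 rose and 55 fell, with a median of -0.06. In 148 of the 186 pairs the noncoding gene had the higher log2 fold change.

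The summed level of the divergent genes was 905, 899 and 880 CPM in shControl and 1244, 1316 and 1298 CPM in shDDX5, so the groups did not overlap and replicate 1 was the lowest of its group. The summed level of their partners was 21268 to 21490 CPM in shControl and 21856 to 23076 CPM in shDDX5. The median distance between the 2 starts was 131.5 bases. Many of these genes are near the floor of the filter, and a gene with counts only after the knockdown passes it because it rose. Among the 110 divergent genes with at least 1 CPM in shControl 49 rose and 9 fell (median 0.46), against 210 and 185 of 842 other long noncoding genes chosen the same way (median -0.03). Among the 149 that share no exonic base with another gene 81 rose and 9 fell.

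The noncoding genes were called higher most often beside a partner that rose, but also beside others. Where the partner rose (50 pairs), 37 divergent genes rose and 0 fell; where it was not called (81 pairs), 41 rose and 4 fell; where it fell (55 pairs), 18 rose and 7 fell. LINC00205 had 5.83, 5.96 and 6.46 CPM in shControl and 38.3, 52.4 and 51.9 CPM in shDDX5 (log2 fold change 2.96 ± 0.15, edgeR adjusted p = 4.7e-06), while its partner POFUT2, a protein O-fucosyltransferase, fell from 13.9, 14.8 and 14.1 CPM to 10.2, 11.3 and 12.0 CPM (-0.36 ± 0.10, edgeR adjusted p = 0.014, and 0.061 without shControl replicate 2). SCAMP1-AS1 rose from 4.08, 4.34 and 4.69 CPM to 15.7, 11.4 and 11.2 CPM (1.55 ± 0.16, edgeR adjusted p = 0.00011), while SCAMP1, a secretory carrier membrane protein, fell from 58.3, 50.2 and 50.6 CPM to 36.9, 39.8 and 36.4 CPM (-0.49 ± 0.09, edgeR adjusted p = 0.0025). CEBPA-DT, upstream of the myeloid transcription factor gene CEBPA, rose from 2.64, 2.71 and 2.71 CPM to 12.0, 10.9 and 10.2 CPM (2.03 ± 0.12, edgeR adjusted p = 9.3e-06), while CEBPA (0.19 ± 0.09, edgeR adjusted p = 0.12) did not pass the test with 6 libraries. The divergent gene of CDC20, a mitotic gene that fell by 1.40, rose from a mean of 0.116 to 0.814 CPM (CDC20-DT, edgeR adjusted p = 0.0027), and EMSY-DT rose by 1.32 while EMSY fell by 1.35. PRKCQ-AS1 was among the 11 that fell, by 1.04, and PRKCQ fell by 0.39, a call lost with the replicate block (edgeR adjusted p = 0.054) and without shControl replicate 3 or shDDX5 replicate 2 or 3.

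The shared promoters of 2 such pairs, of a rise beside a falling coding gene, are printed below. Pairs were taken from those whose divergent gene starts within the window, so the closeness of the starts was set by the choice. Each window holds the 250 bases before the RefSeq start of the coding gene (GRCh38.p14), 5′ to 3′ on the coding strand. Capitals run from the edge of the window to the annotated start of the divergent gene. Where its first exon ends was not checked. That RNA reads from the last capital to the left, on the other strand. The POFUT2 window is chr21:45287896-45288145 (minus strand), with 139 bases between the starts, and the SCAMP1 window is chr5:78360367-78360616 (plus strand), with 109 bases between them.
POFUT2 and LINC00205: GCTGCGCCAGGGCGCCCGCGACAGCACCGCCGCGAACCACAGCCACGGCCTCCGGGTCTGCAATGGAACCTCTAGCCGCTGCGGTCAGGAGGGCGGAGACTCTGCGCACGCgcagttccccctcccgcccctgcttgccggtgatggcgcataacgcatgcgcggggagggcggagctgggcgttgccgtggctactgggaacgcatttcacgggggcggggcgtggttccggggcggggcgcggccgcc
SCAMP1 and SCAMP1-AS1: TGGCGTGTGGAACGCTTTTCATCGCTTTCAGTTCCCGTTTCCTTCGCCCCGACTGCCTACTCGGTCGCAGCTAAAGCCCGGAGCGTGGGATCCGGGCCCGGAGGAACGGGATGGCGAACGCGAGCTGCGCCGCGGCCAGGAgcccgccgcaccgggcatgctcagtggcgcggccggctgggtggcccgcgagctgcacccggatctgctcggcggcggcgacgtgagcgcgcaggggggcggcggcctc

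Both windows are rich in G and C, at 74.0% and 72.8%, and hold 33 and 37 CG dinucleotides. The median over the 150 partners with a RefSeq promoter, of 185, was 69.0% and 26 CG dinucleotides, against 64.8% and 21 over the 9371 matched promoters of the 11515 tested protein-coding gene symbols.

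**Figure D5:**
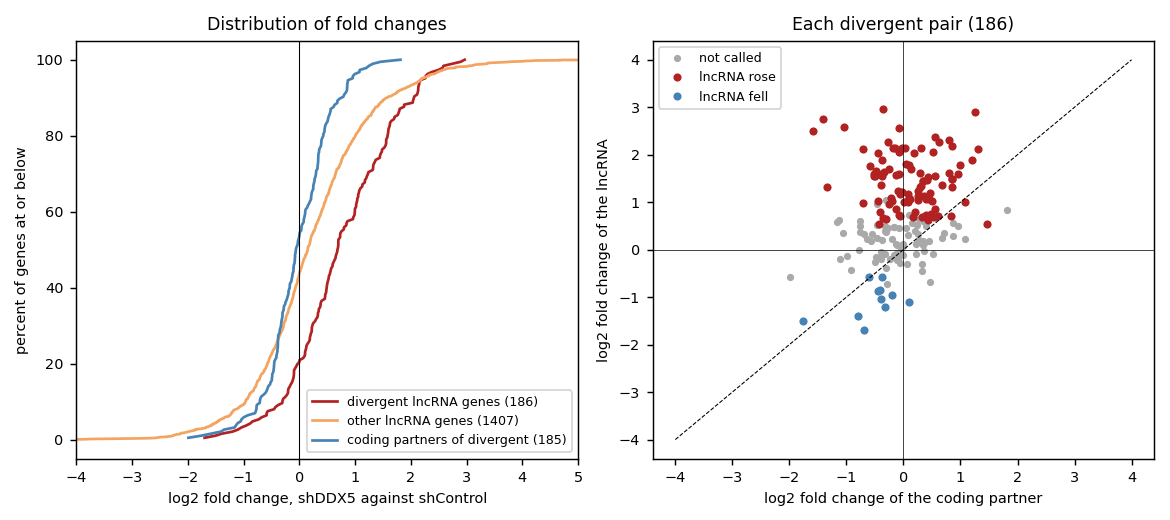
Left, cumulative percent of genes (y axis) by log2 fold change (x axis) for 186 divergent long noncoding genes, 1407 other long noncoding genes and the 185 coding partners; right, the log2 fold change of each divergent gene against that of its partner, with the line of equal change. The curve of the divergent genes lies to the right of the other 2 over most of its course (median 0.69 against 0.15 and -0.06), and 148 of 186 pairs lie above the line.

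Summed markers of other cell types were lowest for B cells and highest for T and NK cells, and some sums moved with the knockdown. The summed level of 10 fibroblast and stromal markers was 15.4 to 16.0 CPM in shControl and 37.3 to 39.4 CPM in shDDX5, mostly from FAP, and that of 18 T and NK cell markers was 162 to 175 CPM and 206 to 262 CPM, with NKG7 rising by 1.08 (edgeR adjusted p = 0.00079). By count, 3 of the 4 tested fibroblast markers rose and 0 fell, whereas of the 5 tested T and NK cell markers 1 rose and 2 fell (median -0.33), and 8 of the 18 were at 0 in every library. Megakaryocyte markers were at 8.66 to 9.91 CPM and 4.32 to 7.67 CPM, epithelial and packaging cell markers at 9.96 to 11.2 CPM and 6.90 to 8.75 CPM, and B cell and erythroid sums overlapped between groups. The exact two-sided permutation p of the first 4 sums was 0.10, the smallest that 3 against 3 allows. The summed level of 14 myelomonocytic markers was 4499 to 4849 CPM in shControl and 13673 to 15029 CPM in shDDX5, most of it lysozyme; by count 7 of the 14 rose and 6 fell (median 0.28), with ITGAM among those higher and MEIS1 among those lower. COL1A1, the defining collagen of fibroblasts, had a mean of 0.577 CPM in shControl and 4.76 CPM in shDDX5, and CD3D, of T cells, 1.42 and 0.237 CPM. The part of these markers in the changes above was not tested. In these bulk libraries a change in the share of cells of one kind and a change in RNA per cell cannot be told apart.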

How the data were processed

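RNA of 6 MOLM-14 libraries was read from the deposited table of raw counts per gene. Per the submitters' processing notes, the build was GRCh38.p13 and the tools were STAR 2.7.9a, featureCounts of Subread 2.0.3, Picard 2.8.0, Trim Galore 0.6.7, DESeq2 1.46.0 and R 4.4.2. The strand setting and the annotation release are not given in the sources used here. The table holds 61906 genes, 1 wrapped line was rejoined, and symbols were matched by identifier for all but 149.

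Counts were filtered with filterByExpr (minimum count 10) and tested in R 4.3.3 with edgeR 4.0.16 (TMM factors, robust quasi-likelihood fit, Benjamini-Hochberg adjustment over all tested genes), with and without shDDX5 replicate 1. CPM values use library sizes multiplied by the TMM factors. The code was tested on simulated data. Alternatives were RLE and upper-quartile factors, other filters, DESeq2 1.42.0, glmTreat, a replicate block, a correction for exon length, and each library left out; the length correction without shDDX5 replicate 1, the 1.5-fold glmTreat and the divergent class were added after the data were seen.

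The groups and lists were chosen with earlier results of these data known. Genes were named by rule: the 20 largest rises and falls averaging 5 CPM or more and the 8 largest gains and losses of CPM, called in both fits and outside the cell division, ribosome and interferon lists (the second holds ribosome assembly genes, not ribosomal proteins); up to 4 members per list with the smallest p; genes near 0 in one group; the 5 largest long noncoding changes; the 6 most abundant steady genes; and the genes farthest off in shDDX5 replicate 1. For the ranked rises, falls, gains, losses and long noncoding changes, the rule also required groups that did not overlap. Genes outside the rule were chosen after their values were seen. Some list members are counted but not reported here by name. Marker sums were compared with an exact two-sided permutation test. Deviations of same-numbered libraries from their group means had correlations of -0.034, -0.074 and 0.035. With 3 libraries per group, and shDDX5 replicate 1 standing apart, these values cannot exclude a batch shared by number.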

Additional observations from a re-analysis of the deposited data

How the results depend on the processing

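The numbers of genes that rose and fell stayed within 1.5 times 4088 and 4081 under every setting but a test against a 1.5-fold change, which called 1716 and 1728. Leaving out 1 library at a time gave 3239 to 5318 rising and 3381 to 5334 falling genes, with the largest counts without shDDX5 replicate 1, and DDX5 between -2.21 and -2.18. DESeq2 called 4021 and 3920. Upper-quartile factors called 4504 and 3644, so that 55.3% of calls were rises, with all genes shifted by a median of 0.068. With the replicate number as a block 3720 rose and 3806 fell. The labels do not say whether libraries of the same number belong together. Of the divergent long noncoding genes 47 rose and 6 fell under the stricter filter, which tests fewer genes, and 63 rose and 4 fell against 1.5-fold. The B cell marker sum, -0.0640 CPM between groups, was -0.242 to 0.197 CPM with 1 library left out (0.118 without shControl replicate 1, 0.197 without shDDX5 replicate 1). With 1 library left out the log2 fold change of KMT2D was -0.48 to 0.19, of DYNC1H1 -0.36 to 0.28, of EP300 -0.28 to 0.19 and of CREBBP -0.36 to 0.12, each positive only without shDDX5 replicate 1. With the length correction and without that library KMT2D was 0.33, DYNC1H1 0.44, EP300 0.26, CREBBP 0.21, AGO2 0.13 and NCF4 -0.13; the cause was not tested. Over 48 lists and 17 settings the median log2 fold change moved by more than its spread in 144 cases and by less in 672. Genes at a few counts per library are limited by depth.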

Other observations

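Several further lists, chosen like the others with earlier results known, had members with clear changes. Of 48 tested Notch, Hippo and TGF-beta pathway genes 19 rose and 8 fell (median log2 fold change 0.17): GDF15, a stress-induced cytokine, rose from 15.9, 16.9 and 16.6 CPM to 63.0, 45.7 and 46.5 CPM (edgeR adjusted p = 3.7e-05), and LATS2, a kinase of the Hippo pathway, rose by 1.17 (edgeR adjusted p = 2.1e-05). Among 34 checkpoint ligands and costimulators 12 rose and 13 fell. VSIR (VISTA), an inhibitory ligand of myeloid cells, rose from 94.7, 98.3 and 95.1 CPM to 363, 289 and 308 CPM (edgeR adjusted p = 9.0e-06), and the complement receptor VSIG4 rose by 1.52 (edgeR adjusted p = 1.0e-05), while BTN3A2, a butyrophilin, fell by 1.26 (edgeR adjusted p = 1.3e-05). Of 34 nuclear receptor genes 13 rose and 11 fell; PPARD rose by 1.57 (edgeR adjusted p = 5.2e-06) and the clock repressor NR1D2 fell by 1.91 (edgeR adjusted p = 2.9e-05).

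Peroxisome genes had 15 of 42 rising and 14 falling, but 2 genes of peroxisome assembly fell by over 2-fold, PEX3 by 1.40 and PEX26 by 1.18, while PEX19, the cytosolic receptor that works with both, rose by 0.98 (edgeR adjusted p = 8.1e-05). Of 62 genes of lipoprotein uptake, sterol efflux and lipid droplets 25 rose and 15 fell; the scavenger receptor CD36 rose from 39.0, 33.9 and 37.9 CPM to 87.6, 91.4 and 88.9 CPM (edgeR adjusted p = 1.4e-05). Of 12 drug transporters 4 rose and 3 fell, with ABCC4 (-0.82) and ABCC5 (-1.19) lower and ABCC10 (1.17) higher. Among 4 motifs searched on both strands in the 250 bases before RefSeq starts, TGAGTCA was found in 33 of 747 promoters of protein-coding genes that rose at least 2-fold (4.42%), 16 of 983 that fell at least 2-fold (1.63%) and 238 of all 9371 (2.54%). The shares for CACGTG were 8.17%, 9.36% and 9.21%, for TGACGTCA 2.41%, 2.95% and 3.01%, and for TATAAA 7.76%, 5.80% and 5.47%; a match is a description and not a site of binding.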
